A study of Mus musculus with 31 samples.

Results

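The genes described here are the 4 eIF2α kinases (Eif2ak1, Eif2ak2, Eif2ak3, Eif2ak4), the regulatory subunits of the eIF2α phosphatase (Ppp1r15a, Ppp1r15b), its catalytic partner Ppp1ca, and 2 regulators of the pathway, Impact and Trib3. They were taken by name from the deposited count tables, where all 9 have a row, out of 20704 genes in the table of ribosome-protected fragments (RPFs) and 24593 in the table of total RNA. RPFs are the stretches of mRNA that ribosomes shield from nuclease, so their count reads translation, while total RNA reads transcript level. Translation efficiency (TE) is the ratio of the 2.

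The study compared cultured mouse skin squamous cell carcinoma (SCC) cells that can or cannot phosphorylate eIF2α at serine 51, with and without proteasome inhibition. The cells carry Hras G12V and a Tgfbr2 allele that the labels give as fl/fl and the study's list of lines as deleted (D/D), their endogenous Eif2s1 (eIF2α) was knocked out with CRISPR, and a myc-tagged transgene under the PGK promoter replaced it, either S51, which supports the integrated stress response (ISR), or S51A, which is ISR-null. Both genotypes are clonal lines, the study pooled clones, and which clone a library came from is not given in the sources used here. Cells received vehicle (DMSO) or 100 nM bortezomib for 4.5 h by the labels. RPF libraries number 3 for S51 vehicle and 4 elsewhere, and each genotype and treatment has 4 libraries of total RNA. The titles of S51 bortezomib and S51A vehicle were exchanged by the submitters, and their own note on the exchange was followed here. Whether the libraries of a group came from separate cultures is described in more than 1 way, so p-values measure only the spread between these libraries.

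When eIF2α is phosphorylated, the exchange factor eIF2B is held back, most initiation slows, and a small set of mRNAs with upstream open reading frames (uORFs), among them those of ATF4, ATF5 and CHOP, is translated better. Each kinase answers a different input: HRI (Eif2ak1) senses heme lack and mitochondrial stress, PKR (Eif2ak2) double-stranded RNA, PERK (Eif2ak3) unfolded protein in the endoplasmic reticulum, and GCN2 (Eif2ak4) uncharged tRNA and stalled ribosomes. The phosphatase closes the loop, with GADD34 (Ppp1r15a) induced by the response itself and CReP (Ppp1r15b) made constitutively, and both bring the catalytic subunit PP1α (Ppp1ca) to eIF2α. IMPACT competes with GCN2 for its activator GCN1, and TRIB3 is a pseudokinase made downstream of ATF4 and CHOP that dampens that output.

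Library totals ran from 1038826 to 4902237 RPF counts and from 18758668 to 22994713 total RNA counts, so the RPF values of weakly translated genes rest on few counts. The keratinocyte markers (Krt5, Krt14, Trp63, Itga6, Itgb4 and Cdh1) summed to 10633 to 11202 CPM (counts scaled to a common library total) of total RNA in S51 vehicle and to 13155 to 15371 CPM in the other groups, mostly Krt5 and Krt14, against 3.02 to 7.39 CPM for 8 markers of fibroblasts, leukocytes, melanocytes and endothelium, of which Cd3e, Col1a2 and Dct had no count in any library and Pdgfra most of the sum. Not all keratinocyte markers moved with the sum: Trp63 went on bortezomib from 331 to 351 CPM down to 166 to 191 CPM in S51 and from 382 to 429.7 CPM down to 179 to 212 CPM in S51A, and was called lower in RPF in both (-1.33 and -1.04), while Itga6 was called lower in S51 than in S51A in RPF under both treatments (-0.88 and -0.75). The part of these markers in the results was not tested. Eif2s1 itself, whose counts do not separate transgene from endogenous transcripts, lay between 279 and 314 CPM of total RNA in all 16 libraries. Its RPF level under vehicle was 162, 81.2 and 171 CPM in S51 and 213, 237, 213 and 260 CPM in S51A, and replicate 2 of S51 vehicle was the lowest of all 15. That RPF library stands apart from its group: its chi-square per gene was 13.2 against replicate 1 and 18.4 against replicate 3, where every other pair of RPF replicates lay between 1.66 and 5.01. Results that use it are therefore also given without it. The Eif2s1 difference between the genotypes under vehicle was -0.73 ± 0.16 in RPF (log2, SE; adjusted p = 0.00234) and -0.79 ± 0.16 in TE (adjusted p = 0.0201). Both values include replicate 2 of S51 vehicle, where the TE of Eif2s1 was -1.94 against -0.88 and -0.86 in replicates 1 and 3. Replicates 1 and 3 also lay below every S51A vehicle library in RPF, and in TE, where S51A vehicle ran from -0.46 to -0.21. No fit without replicate 2 is given for Eif2s1, so the size of its difference without that library is not known here. A difference was called in RPF and TE at an adjusted p under 0.05 and a fold change over 1.5, and in total RNA at a fold change over 2.

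The mRNAs of these genes differ in what lies ahead of their coding sequence, so the start of each upstream ATG in 2 kinase mRNAs and both phosphatase subunit mRNAs is shown first. RefSeq transcripts on GRCm38.p6 have no upstream ATG for Eif2ak1, Eif2ak4, Trib3 and Ppp1ca, 1 for Eif2ak2, 3 each for Eif2ak3, Ppp1r15a and Ppp1r15b, and 8 for Impact. Of the 9410 genes tested for TE that have such a transcript, 46.6% have at least 1 upstream ATG and 15.6% have at least 3. In the sequences below the upstream ATG is in capitals with 6 bases on either side, 5′ to 3′ on the mRNA strand, and all the upstream reading frames of Ppp1r15a and Ppp1r15b end before the coding sequence.
Ppp1r15a uORF 1, 45 codons, chr7:45526226-45526240, minus strand: tggacgATGttggcg
Ppp1r15a uORF 2, 34 codons, chr7:45526182-45526196, minus strand: gattacATGcgatat
Ppp1r15a uORF 3, 26 codons, chr7:45526081-45526095, minus strand: ggcgacATGaacccg
Ppp1r15b uORF 1, 2 codons, chr1:133131239-133131253, plus strand: cggcgaATGacgtga
Ppp1r15b uORF 2, 8 codons, chr1:133131462-133131476, plus strand: ttctctATGgtggag
Ppp1r15b uORF 3, 51 codons, chr1:133131511-133131525, plus strand: gccgggATGgaccta
Eif2ak2 uORF 1, 65 codons, overlapping the coding sequence, chr17:78882506-78882520, minus strand: acttccATGggcagc
Eif2ak3 uORF 1, 154 codons, overlapping the coding sequence, chr6:70844524-70844538, plus strand: cgctcaATGggcgat
Eif2ak3 uORF 2, 12 codons, chr6:70844531-70844545, plus strand: tgggcgATGtctgca
Eif2ak3 uORF 3, 8 codons, overlapping the coding sequence, chr6:70844694-70844708, plus strand: gtctccATGcccgcg

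Of these 10 starts, the third of Ppp1r15b has both a purine at the third base before the ATG and a G just after it, and the other 9 do not. The last uORF of Ppp1r15a stops 23 bases before the coding sequence and the last of Ppp1r15b 74 bases before it. Impact has 6 upstream frames that end before its coding sequence and 2 that run into it, and its leader of 414 bases compares with a median of 159 bases over the genes tested for TE. RPFs in upstream frames are not in the tables, which count the coding sequence alone.

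RefSeq promoter windows (250 bases before to 50 after the start, same build) were given for 6 of the 9 genes, all but Ppp1r15b, Impact and Ppp1ca, and were searched on both strands for the ATF4-CHOP element TGATGNAA (CARE), the CRE TGACGTCA, a heat shock element of TTC, GAA and TTC spaced by 2 bases each, and the ER stress element (ERSE) of CCAAT and CCACG spaced by 9 bases. Trib3 held the only CARE among them, on the strand opposite to the gene and beginning 14 bases after the transcription start. Ppp1r15a held the only CRE, beginning 12 bases before its start. Over all 27025 promoters of that length, 4.06% held a CARE, 1.88% a CRE, 0.529% a heat shock element and 0.13% an ERSE. These windows are shown because Trib3 and Ppp1r15a are the 2 genes of the group whose total RNA changed by more than 2-fold, and the motif is in capitals. Whether the motifs have a part in those changes was not tested.
Trib3, chr2:152344028-152344057, minus strand: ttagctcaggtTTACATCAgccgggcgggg
Ppp1r15a, chr7:45526262-45526291, minus strand: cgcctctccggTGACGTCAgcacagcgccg

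In S51 cells bortezomib raised the RPFs of 4 of the 9 genes, Eif2ak3, Ppp1r15a, Impact and Trib3, and lowered none, where 7.38% of the 9457 genes tested were called higher and 11.2% lower. In S51A cells Eif2ak3 alone was called higher in RPF, against 4.19% of all genes. In total RNA, Ppp1r15a and Trib3 were called higher in S51 cells (1.96% of 11708 genes called higher, 3.02% lower) and none of the 9 was called in S51A cells (4.18% in either direction). In TE, Ppp1r15a and Impact were called higher in S51 cells, where 1.04% of 9424 genes were called higher and 4.24% lower, and none in S51A cells (0.987% in either direction). The median log2 change of the 9 genes in RPF was 0.56 in S51 and 0.29 in S51A, and the median over all genes tested was within 0.02 of 0 in both. The S51 median is the value of Eif2ak2, which was 0.33 without S51 vehicle replicate 2. The S51A median is the value of Trib3, which was 0.28 in that fit. So the gap between the 2 medians leans on that library. All 9 passed the filter on low counts, but Ppp1r15a and Impact passed it in RPF only through the S51 bortezomib libraries, so that their calls against S51 bortezomib lean on the filter. In bulk samples, less RNA per cell and fewer cells carrying it cannot be told apart.

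Without S51 vehicle replicate 2, the RPF library that stands apart, the same 4 genes were called higher in S51 in RPF, by 0.67 for Eif2ak3 (adjusted p = 0.0261), 2.73 for Ppp1r15a (1.77e-07), 1.66 for Impact (0.000921) and 1.28 for Trib3 (2.85e-09). The genotype differences called under vehicle in RPF were then 2.81 for Impact (adjusted p = 0.000436) and 1.27 for Trib3 (3.87e-08). In TE the total RNA library of that lysate was left out as well. There the S51 response of Ppp1r15a was 1.59 (adjusted p = 0.00529) and that of Impact 0.98 (0.0774, no longer called), and the vehicle difference of Impact was 2.71 (0.0396).

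**Figure D1:**
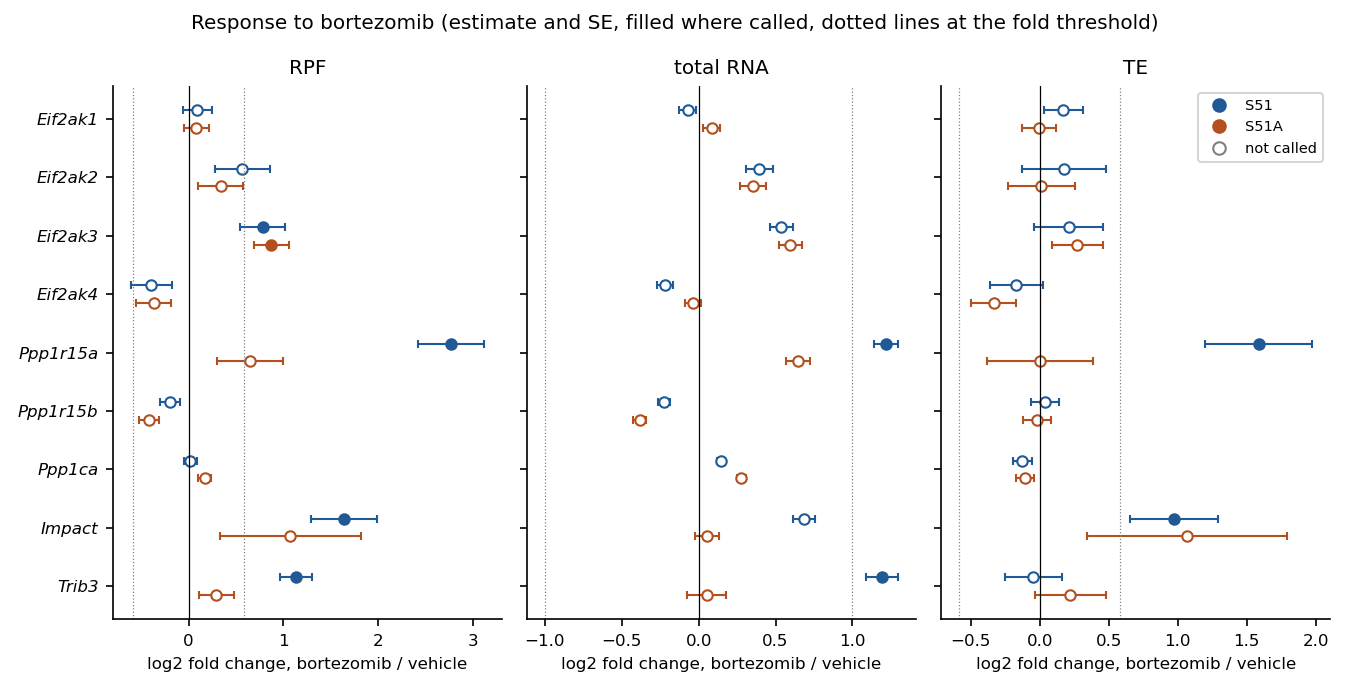
Change on bortezomib of each gene in RPF, total RNA and TE (log2 fold change over vehicle, points with SE bars), in S51 (blue) and S51A (orange) cells, filled where called, with dotted lines at the fold threshold. Ppp1r15a stands at 2.77 in RPF in S51 and 0.65 in S51A, and Eif2ak3 is filled in both genotypes.

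Among the kinases, PERK (Eif2ak3, chr6:70844484-70905241) was the one whose RPFs changed, together with its total RNA. Its RPF level was 10.3, 10.6 and 17.2 CPM in S51 vehicle and 26.2, 22.0, 17.4 and 26.9 CPM in S51 bortezomib. In S51A it was 14.5, 17.5, 25.7 and 19.3 CPM under vehicle and 29.96, 35.6, 41.6 and 34.8 CPM under bortezomib. In both genotypes every bortezomib library was above every vehicle library. The log2 increase was 0.78 ± 0.24 in S51 (SE; adjusted p = 0.0151) and 0.87 ± 0.18 in S51A (adjusted p = 0.0014), and the increase did not pass the test of a difference between the genotypes (-0.09 ± 0.30, adjusted p = 0.916). Without S51 vehicle replicate 1 the S51 increase was 0.64 with an adjusted p of 0.0659, and without S51 bortezomib replicate 4 it was 0.69 with an adjusted p of 0.0557.

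Total RNA of Eif2ak3 moved in the same direction, from between 27.0 and 30.3 CPM to between 38.5 and 44.9 CPM in S51 and from between 31.98 and 39.4 CPM to between 46.5 and 61.4 CPM in S51A. Those groups did not overlap, and the log2 differences of 0.54 ± 0.08 and 0.60 ± 0.07 had adjusted p of 1.13e-06 and 1.79e-07 while staying under the 2-fold threshold. The TE of Eif2ak3 had log2 differences of 0.21 ± 0.25 in S51 and 0.27 ± 0.18 in S51A (adjusted p = 0.663 and 0.931). Between the genotypes Eif2ak3 was lower in S51 than in S51A under bortezomib, by -0.63 ± 0.20 in RPF (adjusted p = 0.0192) and by -0.33 ± 0.07 in total RNA (adjusted p = 0.000266). Under vehicle the RPF difference was -0.54 ± 0.22 (adjusted p = 0.0707), and it was called without S51 vehicle replicate 3 (-0.84, adjusted p = 0.0151) or S51A vehicle replicate 1 (-0.63, adjusted p = 0.0471). Without S51 vehicle replicate 2, the RPF library that stands apart, it was -0.43 (adjusted p = 0.137) and not called. The bortezomib call was lost without S51 bortezomib replicate 3 (-0.48, adjusted p = 0.109), without S51A bortezomib replicate 3 (-0.55, adjusted p = 0.0604) and, by the fold threshold alone, with library sizes in place of TMM.

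HRI (Eif2ak1, chr5:143817792-143902717) was level in RPF, between 24.0 and 38.3 CPM over all 15 libraries, and all 4 groups overlapped. Its log2 RPF differences on bortezomib were 0.09 ± 0.15 in S51 and 0.08 ± 0.13 in S51A (adjusted p = 0.678 and 0.725). In total RNA it was 25.4, 23.6, 24.9 and 26.4 CPM in S51 bortezomib and 29.5, 28.6, 30.2 and 28.4 CPM in S51A bortezomib. These groups were apart by -0.22 ± 0.06 on the log2 scale (adjusted p = 0.0017), under the fold threshold.

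PKR (Eif2ak2, chr17:78850504-78882572) had 4.83 to 12.04 CPM of RPF in S51 vehicle and 11.5 to 19.7 CPM in S51 bortezomib, a log2 difference of 0.56 ± 0.29 that did not pass (adjusted p = 0.143). The lowest of these, 4.83 CPM, was again replicate 2 of S51 vehicle, and without that library the difference was 0.33 (adjusted p = 0.352). In total RNA Eif2ak2 was 0.39 ± 0.09 higher on bortezomib in S51 and 0.35 ± 0.09 higher in S51A (adjusted p = 0.000437 and 0.0012), both under the 2-fold threshold.

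GCN2 (Eif2ak4, chr2:118388583-118475234) had negative RPF differences on bortezomib, -0.39 ± 0.22 in S51 and -0.37 ± 0.18 in S51A, that did not pass (adjusted p = 0.174 and 0.164). In S51A its vehicle libraries had 22.0, 21.1, 21.2 and 21.1 CPM and its bortezomib libraries 14.5, 20.5, 13.0 and 18.2 CPM, which did not overlap. In total RNA Eif2ak4 was -0.22 ± 0.05 lower on bortezomib in S51 (adjusted p = 0.00101) and -0.03 ± 0.05 in S51A (adjusted p = 0.603), and the difference of those 2 changes did not pass (-0.19 ± 0.07, adjusted p = 0.0791).

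Because the coding sequences differ in length, the order of the kinases was read per kilobase of counted coding sequence. In S51 vehicle the RPF level was 16.5 ± 0.73 CPM per kb for Eif2ak1, 6.40 ± 2.73 for Eif2ak2, 4.06 ± 1.08 for Eif2ak4 and 3.86 ± 1.18 for Eif2ak3 (SD, n = 3). The last 3 overlapped their neighbors in that order, and Eif2ak1 stood above all of them. In S51A bortezomib the order was Eif2ak1 at 17.8 ± 1.56, Eif2ak2 at 11.1 ± 2.48, Eif2ak3 at 10.8 ± 1.45 and Eif2ak4 at 3.38 ± 0.70 CPM per kb (SD, n = 4), where Eif2ak2 and Eif2ak3 overlapped. In both genotypes Eif2ak4 overlapped Eif2ak3 under vehicle and lay below it under bortezomib.

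**Figure D2:**
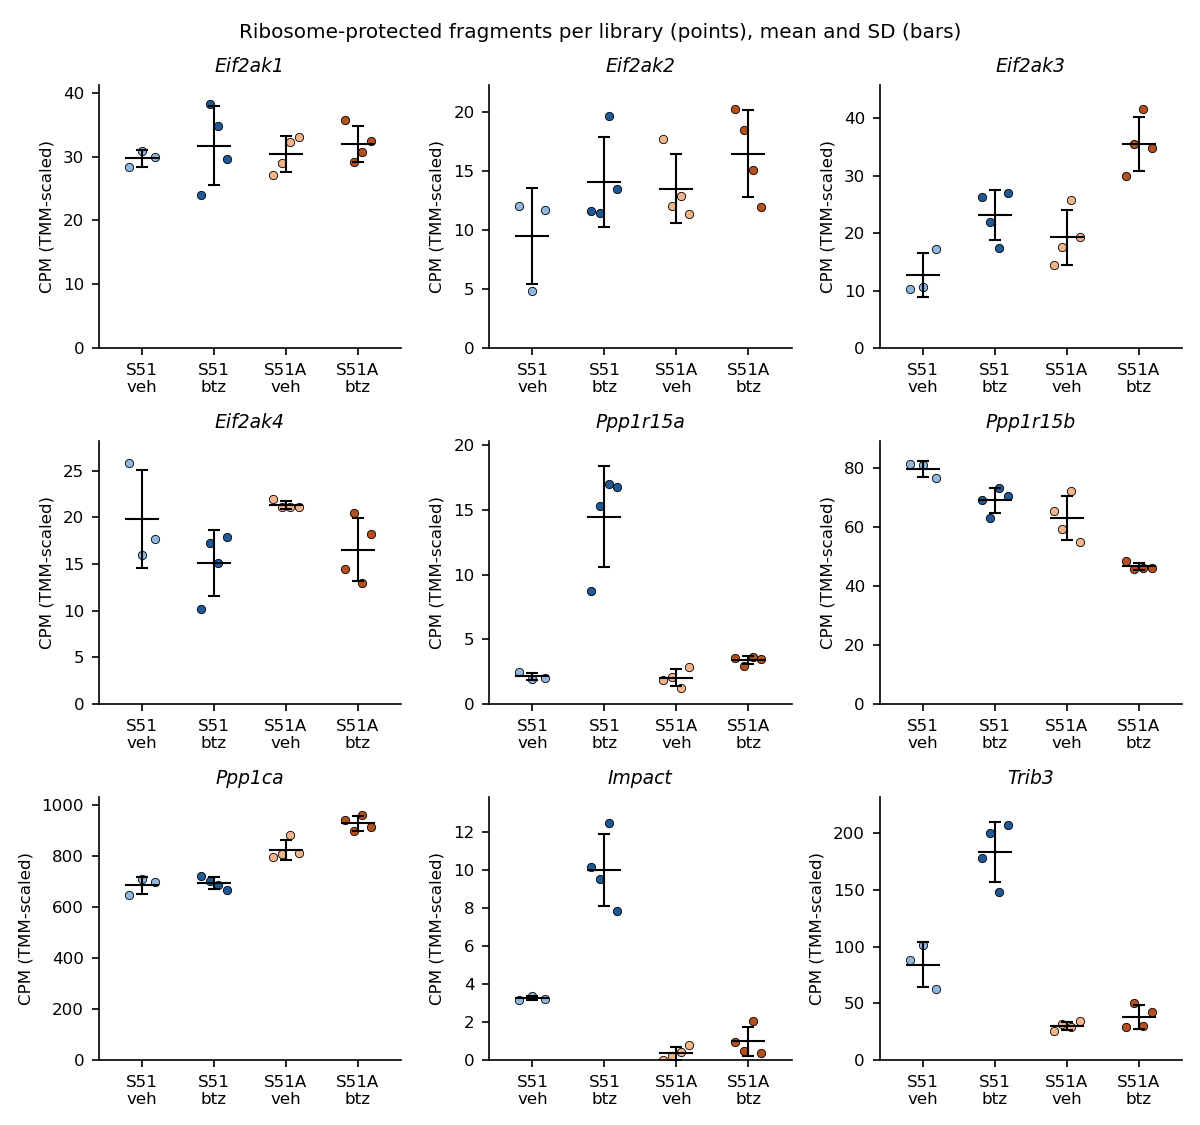
RPF level of each gene in every library (CPM scaled by TMM, linear axes from 0), as points for S51 vehicle (3 libraries) and the other groups (4 libraries each), with the mean and SD as bars. Ppp1r15a reaches 8.73 to 17.0 CPM in S51 bortezomib and at most 3.64 CPM in the other groups, and Impact is at most 2.08 CPM in S51A.

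GADD34 (Ppp1r15a, chr7:45522917-45526268, minus strand) gave the largest RPF response of the 9 genes. It had 2.48, 1.93 and 1.99 CPM in S51 vehicle and 8.73, 15.3, 17.0 and 16.8 CPM in S51 bortezomib. In S51A it had 1.87, 2.11, 1.24 and 2.84 CPM under vehicle and 3.54, 2.92, 3.64 and 3.48 CPM under bortezomib. Bortezomib libraries lay above vehicle libraries in both genotypes, but the S51 bortezomib group stood apart from all the others.

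These levels rest on few counts, 19 over the 3 S51 vehicle libraries and 103 over the 4 S51 bortezomib libraries, against 31 and 33 in S51A. From the summed counts the S51 rate under bortezomib was 7.05 times that under vehicle (exact 95% interval 4.29 to 12.2, counting error only), and the S51A ratio was 1.57 (0.93 to 2.64). Across the libraries the log2 increase was 2.77 ± 0.35 in S51 (adjusted p = 6.96e-07) and the S51A difference 0.65 ± 0.35 (adjusted p = 0.198). The difference between the 2 responses was 2.12 ± 0.49 with an adjusted p of 0.0195, past the threshold, where 0.878% of all genes were called higher. Since Ppp1r15a was tested in RPF only because of its counts in S51 bortezomib, nothing is read from setting it against that share. It was not tested with at least 10 counts in every library, and DESeq2 gave it no adjusted p. It missed the threshold without S51 bortezomib replicate 3 (2.01, adjusted p = 0.0508) and without S51A vehicle replicate 4 (1.87, adjusted p = 0.0854). Without S51 vehicle replicate 2 the difference between the responses was 2.08 (adjusted p = 0.0171). Counted over all genes, the calls of that test went from 176 to 383 without S51 vehicle replicate 3 and to 99 without S51 bortezomib replicate 3.

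Total RNA of Ppp1r15a rose in S51 from 24.4, 18.5, 19.6 and 17.6 CPM to 46.2, 42.8, 45.1 and 51.8 CPM, a log2 increase of 1.22 ± 0.08 (adjusted p = 2.1e-12). In S51A it went from 24.9, 23.5, 24.6 and 21.7 CPM to 39.5, 35.3, 37.2 and 36.0 CPM, a log2 difference of 0.65 ± 0.08 with an adjusted p of 1.68e-07 that stayed under the 2-fold threshold. So S51A cells also had more Ppp1r15a RNA on bortezomib, and the S51 increase was larger by 0.57 ± 0.11 (adjusted p = 0.000633). The RefSeq gene overlaps Tulp2 on the other strand, and the sources used here do not say whether counting used strand. The same limit holds for Eif2ak1 (Ankrd61 and Aimp2), Eif2ak2 (Gm26637) and Ppp1ca (Rad9a), while Eif2ak3 overlaps Gm23346 on its own strand.

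The TE of Ppp1r15a, as log2 RPF CPM minus log2 total RNA CPM of 1 lysate, was -2.92, -2.79 and -2.84 in S51 vehicle and -2.29, -1.42, -1.35 and -1.56 in S51 bortezomib. In S51A it was -3.25, -3.04, -3.62 and -2.60 under vehicle and -3.20, -3.27, -3.09 and -3.09 under bortezomib. The S51 bortezomib lysates were above all the others. TE rose in S51 by 1.59 ± 0.39 (adjusted p = 0.00195) and in S51A the log2 difference was 0.00 ± 0.39 (adjusted p = 1). The difference between these, 1.59 ± 0.55, had an adjusted p of 0.149 and was not called.

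CReP (Ppp1r15b, chr1:133131166-133139800) was translated at a higher level than GADD34 in every group. Per kilobase it had 39.2 ± 1.33 CPM of RPF in S51 vehicle (SD, n = 3) against 1.12 ± 0.16 for Ppp1r15a, and 34.0 ± 2.13 against 7.56 ± 2.04 in S51 bortezomib (SD, n = 4). Its RPF level was 81.5, 81.2 and 76.7 CPM in S51 vehicle and 69.1, 63.1, 73.4 and 70.6 CPM in S51 bortezomib. In S51A it was 65.4, 59.6, 72.2 and 55.0 CPM under vehicle and 48.6, 45.8, 46.3 and 46.0 CPM under bortezomib. Within each genotype the bortezomib group was below the vehicle group without overlap, and within each treatment S51 was above S51A without overlap.

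None of these Ppp1r15b differences passed the fold threshold in RPF. The changes on bortezomib were -0.20 ± 0.11 in S51 (adjusted p = 0.186) and -0.42 ± 0.10 in S51A (adjusted p = 0.0058), and the genotype differences 0.35 ± 0.10 under vehicle (adjusted p = 0.0151) and 0.57 ± 0.11 under bortezomib (adjusted p = 0.000362). The last lay just inside the threshold and was called with library sizes alone (0.62) and without S51 vehicle replicate 3, S51 bortezomib replicate 2 or S51A bortezomib replicate 1 (0.59 to 0.61). In total RNA Ppp1r15b was -0.23 ± 0.04 on bortezomib in S51 and -0.38 ± 0.04 in S51A (adjusted p = 4.46e-05 and 2.69e-08). The genotypes differed little there, by -0.03 ± 0.04 under vehicle and 0.13 ± 0.04 under bortezomib (adjusted p = 0.591 and 0.00832). The TE of Ppp1r15b was -1.40 to -1.22 in the 7 S51 lysates and -1.85 to -1.50 in the 8 S51A lysates, and the genotype difference in TE was 0.39 ± 0.10 under vehicle (adjusted p = 0.0993) and 0.45 ± 0.11 under bortezomib (adjusted p = 0.00556), under the fold threshold.

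PP1α (Ppp1ca, chr19:4192174-4195419) was the most translated of the 9 genes per kilobase in every group, at 733 ± 37.0 CPM per kb in S51 vehicle (SD, n = 3) and 994 ± 30.1 in S51A bortezomib (SD, n = 4). It was lower in S51 than in S51A without overlap, in RPF by -0.27 ± 0.07 under vehicle and -0.42 ± 0.07 under bortezomib (adjusted p = 0.00667 and 4.86e-05) and in total RNA by -0.29 ± 0.03 and -0.42 ± 0.03 (adjusted p = 4.54e-09 and 4.2e-12). All these were under the fold thresholds, and its TE differed by 0.02 ± 0.07 and 0.00 ± 0.07 (adjusted p = 0.922 and 1).

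The other PP1 subunits fixed for comparison, 9 genes of the catalytic and regulatory kind, gave no call on bortezomib in either direction in RPF, total RNA or TE in either genotype. Of all genes, 7.38% were called higher and 11.2% lower in RPF in S51, and 4.19% and 6.67% in S51A. In S51 the shares were 1.96% and 3.02% in total RNA and 1.04% and 4.24% in TE. In S51A 4.18% in total RNA and 0.987% in TE were called in either direction. A list of 9 genes is too short for the lack of calls to be read against these shares. The S51 RPF changes of the listed PP1 subunits ran from -0.09 for Ppp1r7 to 0.38 for Ppp1r12a. Ppp1cc, the γ isoform of the catalytic subunit, was the one gene of that list called between the genotypes under bortezomib, lower in S51 in RPF (-0.64) and in TE (-0.59). Of all genes, 17.7% were called in RPF in either direction in that comparison, and 290 of 9424 in TE.

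**Figure D3:**
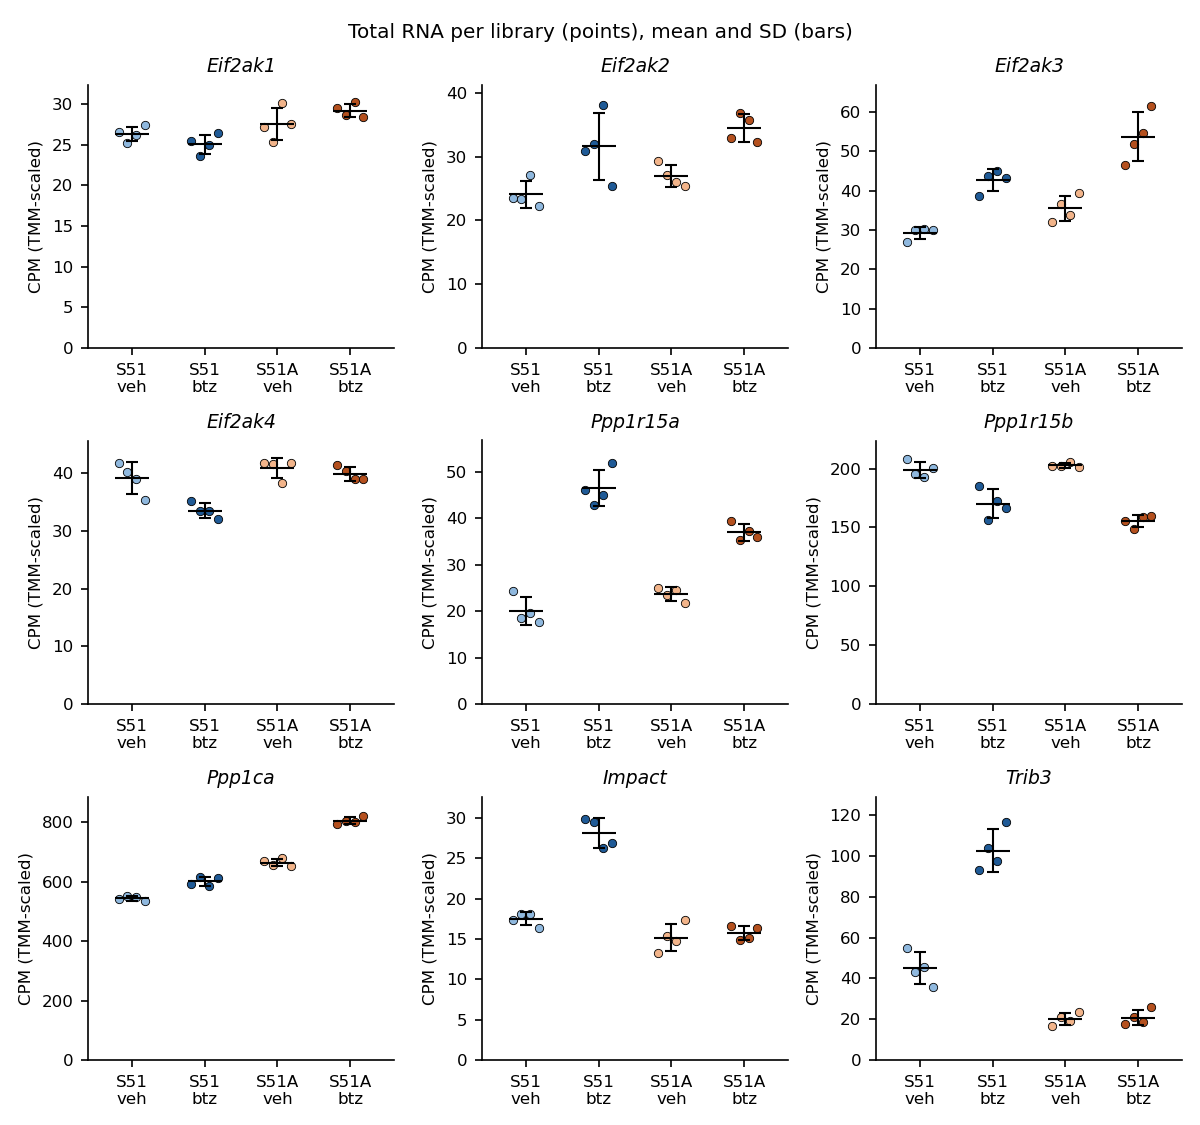
Total RNA of each gene in every library (CPM scaled by TMM, linear axes from 0), as points for 4 libraries a group with the mean and SD as bars. Trib3 is at 93.0 to 117 CPM in S51 bortezomib and at 16.7 to 25.97 CPM in all S51A libraries.

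IMPACT (Impact, on chromosome 18) was nearly absent from the RPFs of S51A cells. Its raw counts were 9, 7 and 13 in S51 vehicle and 14, 10, 33 and 14 in S51 bortezomib. In S51A they were 0, 1, 1 and 4 under vehicle and 3, 1, 4 and 1 under bortezomib. Scaled, that is 3.19 to 3.38 CPM in S51 vehicle, 7.84 to 12.5 in S51 bortezomib, at most 0.811 in S51A vehicle and at most 2.08 in S51A bortezomib, and neither S51 group overlapped the S51A group of the same treatment.

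From summed counts, 29 against 6, the S51 rate under vehicle was 7.71 times that of S51A (exact 95% interval 3.15 to 22.7), and under bortezomib, 71 against 9, it was 11.1 times (5.55 to 25.3). Across libraries Impact was called higher in S51 in RPF, by 2.82 ± 0.64 under vehicle (adjusted p = 0.000417) and 3.39 ± 0.51 under bortezomib (adjusted p = 2.07e-06), and with counts this low these folds depend on the offset that the fit adds to each count. Bortezomib raised Impact RPFs in S51 by 1.64 ± 0.35 (adjusted p = 0.00086), a summed count ratio of 3.18 (2.04 to 5.09). In S51A the difference was 1.07 ± 0.74 (adjusted p = 0.292), and the S51A interval on the summed counts ran from 0.701 to 7.53 around 2.21. The 2 responses were not shown to differ (0.57 ± 0.82, adjusted p = 0.822).

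Total RNA of Impact did not carry the genotype difference seen in RPF under vehicle. It was 17.4, 18.1, 18.1 and 16.4 CPM in S51 vehicle and 13.2, 15.3, 14.7 and 17.3 CPM in S51A vehicle, which overlapped, with a difference of 0.20 ± 0.08 (adjusted p = 0.0207). On bortezomib it was 29.9, 29.5, 26.3 and 26.9 CPM in S51 and 16.7, 14.8, 15.2 and 16.4 CPM in S51A. The S51 change was 0.69 ± 0.07 (adjusted p = 9.79e-09), the S51A change 0.06 ± 0.08 (adjusted p = 0.562), and the 2 differed by 0.63 ± 0.10 (adjusted p = 0.000142), all under the 2-fold threshold.

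In TE Impact was therefore the gene of the group with the widest gap between genotypes. It was -2.15, -2.14 and -2.19 in S51 vehicle, -1.45, -1.52, -0.995 and -1.65 in S51 bortezomib, -4.14, -3.99, -3.66 and -3.47 in S51A vehicle and -3.28, -3.59, -2.43 and -3.85 in S51A bortezomib, where the S51A values lean on the prior count of 2. TE was higher in S51 by 2.71 ± 0.62 under vehicle (adjusted p = 0.0198) and by 2.62 ± 0.49 under bortezomib (adjusted p = 2.72e-05). Impact was tested in TE only because of its RPF counts in S51 bortezomib, so nothing is read from setting it against shares of all genes. Under vehicle Impact was 1 of 3 genes called higher in S51 among 9424 (0.0318%), and 8 were called in either direction. That count rests on single lysates: it was 332 without S51 vehicle replicate 3 and 2 without S51A vehicle replicate 4. Impact itself missed the call without S51A vehicle replicate 2 (2.39, adjusted p = 0.152) or replicate 3 (2.72, adjusted p = 0.0612). It also missed the call with the lysate, which RPF and total RNA share, as a block (2.73, adjusted p = 0.0769). Under bortezomib 0.552% of genes were called higher, and Impact and Ppp1r15a were both called, with and without each lysate. Ppp1r15a was higher in S51 by 1.80 ± 0.32 (adjusted p = 6.15e-05). Both genes were tested only because of their counts in S51 bortezomib, so nothing is read from setting them against that share. With at least 10 counts in every library neither was tested. On bortezomib the TE of Impact rose in S51 by 0.98 ± 0.32 (adjusted p = 0.0369), a call lost when any 1 of the 3 S51 vehicle lysates (adjusted p = 0.0774 to 0.0977) or replicate 1 or 3 of S51 bortezomib (0.0501 and 0.226) was left out, and with the lysate as a block (1.02, adjusted p = 0.0608).

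**Figure D4:**
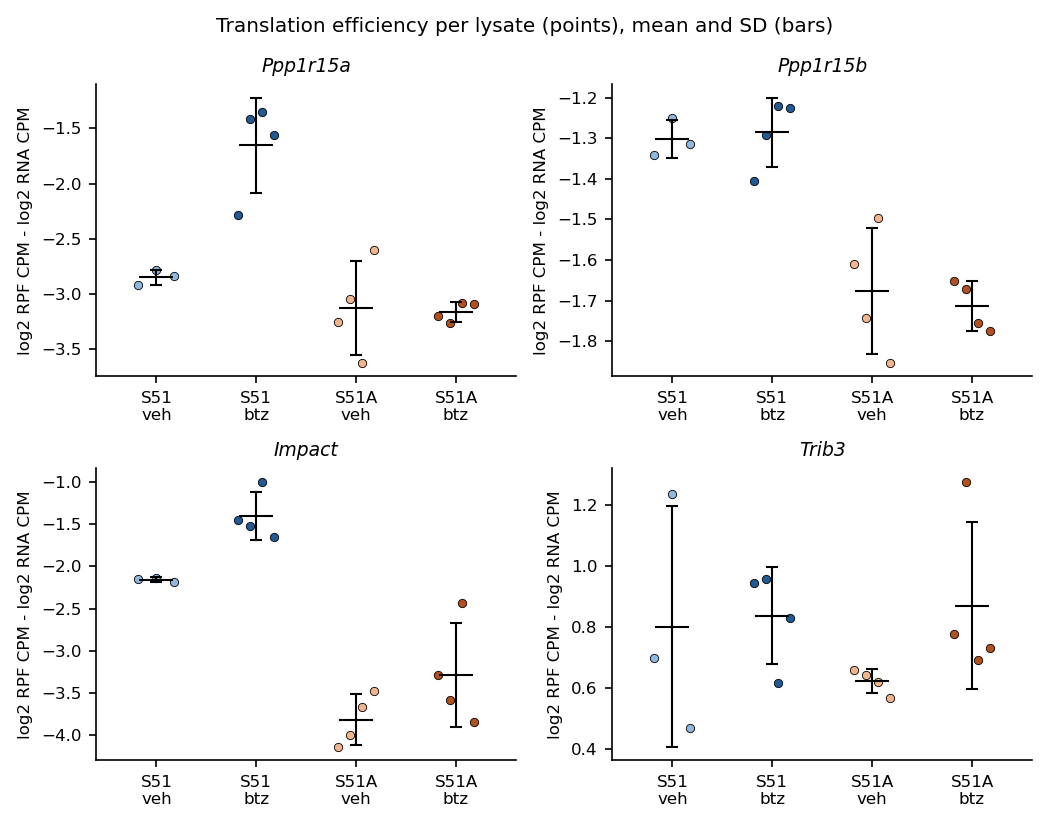
TE of Ppp1r15a, Ppp1r15b, Impact and Trib3 in each lysate (log2 RPF CPM minus log2 total RNA CPM, prior count 2), as points by group with the mean and SD as bars. Ppp1r15a in S51 bortezomib lies between -2.29 and -1.35 and above every other lysate, Impact is lower in S51A than in S51, and Trib3 overlaps between the genotypes.

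TRIB3 (Trib3, chr2:152337425-152344060, minus strand) moved in RPF and total RNA together. Its RPF level was 88.6, 102 and 62.7 CPM in S51 vehicle and 178, 201, 149 and 207 CPM in S51 bortezomib. In S51A it was 25.7, 32.1, 29.0 and 34.1 CPM under vehicle and 29.3, 50.2, 29.6 and 42.6 CPM under bortezomib. The S51 libraries were above the S51A libraries without overlap under both treatments, and bortezomib separated the groups in S51 but not in S51A.

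Total RNA of Trib3 followed the same order. It was 55.0, 43.3, 45.7 and 36.0 CPM in S51 vehicle, 93.0, 104, 97.4 and 117 CPM in S51 bortezomib, 16.7, 20.9, 19.3 and 23.4 CPM in S51A vehicle and 17.5, 21.0, 18.7 and 25.97 CPM in S51A bortezomib. Bortezomib raised Trib3 in S51 by 1.13 ± 0.17 in RPF (adjusted p = 2.89e-05) and 1.19 ± 0.10 in total RNA (adjusted p = 5.02e-10). In S51A the differences were 0.29 ± 0.18 (adjusted p = 0.285) and 0.05 ± 0.13 (adjusted p = 0.76). The difference between the responses was called in total RNA, 1.14 ± 0.16 (adjusted p = 3.2e-05), where 0.316% of genes were called higher. In RPF it was 0.84 ± 0.25 (adjusted p = 0.0767), and 1.00 with an adjusted p of 0.00149 without S51 vehicle replicate 2.

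Trib3 was also the one gene of the group whose total RNA was called between the genotypes. It was higher in S51 under vehicle by 1.16 ± 0.12 (adjusted p = 6.46e-09; 2.41% of genes called higher) and under bortezomib by 2.30 ± 0.11 (adjusted p = 1.18e-14; 2.74% called higher). In RPF, where 6.62% of genes were called higher in S51 under vehicle, Trib3 (1.43 ± 0.18, adjusted p = 3.91e-06) and Impact were called. Under bortezomib 17.7% of genes were called in RPF in either direction, and of the 9 genes Ppp1r15a (2.10 ± 0.29, adjusted p = 4.92e-06), Impact and Trib3 (2.28 ± 0.17, adjusted p = 2.17e-09) were called higher in S51 and Eif2ak3 lower. Since Impact and Ppp1r15a were tested in RPF only because of their counts in S51 bortezomib, nothing is read from setting those 2 genes against these shares. The TE of Trib3 showed no call, with differences of -0.05 ± 0.21 and 0.22 ± 0.26 on bortezomib and 0.24 ± 0.24 and -0.03 ± 0.23 between genotypes (adjusted p of at least 0.647). In S51A its 4 bortezomib lysates, at 0.69 to 1.27, nevertheless lay above its 4 vehicle lysates, at 0.57 to 0.66. In the test of the difference between the responses in TE, none of the 9 genes was called, against 1.29% of all genes.

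The genes whose pattern was most like that of Trib3 over the 15 RPF libraries were Polr1a (Pearson r = 0.98 of log2 CPM), Atf5 (0.98), Slc1a4 (0.978), Galnt6 (0.97) and Ces2g (0.969). Over the 16 total RNA libraries they were Csnk1a1 (0.986), Eprs (0.984), Nars (0.981), Lars (0.979) and Eif4b (0.979). For Ppp1r15a they were Nfe2l2 (0.958), Prpf8 (0.956), Prrc2c (0.954), Ddb1 (0.95) and Son (0.945) in RPF and Mafg (0.978), Cdc42bpg (0.976), Rnf216 (0.975), Pdcd6ip (0.972) and Elf2 (0.972) in total RNA. Libraries of 1 group share treatment and genotype, so these values describe 4 groups more than 15 or 16 points.

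Of the 12 partners of the kinases that were measured, 3 were called higher and none lower in RPF in S51 cells on bortezomib, against 7.38% and 11.2% of all genes: Hsp90aa1 (1.99), Hspa5 (1.70) and Dnajc3 (1.02). Hspa5 is the chaperone BiP that holds PERK inactive, Dnajc3 is the kinase inhibitor p58IPK, and Hsp90aa1 is a chaperone of kinases. The same 3 were called higher in S51A cells (1.43, 1.19 and 0.63), with Hsp90ab1 (0.59), against 4.19% of all genes. In total RNA Hsp90aa1 (1.67), Hsp90ab1 (1.27) and Hspa5 (1.12) were called higher in S51 and Hsp90aa1 (1.36) and Hspa5 (1.17) in S51A. Between the genotypes under vehicle, Hspa5 (-0.78, adjusted p = 0.0021) and the adaptor gene Nck2 (-1.23, adjusted p = 0.00463) were called lower in S51 in RPF, as were 9.19% of all genes. Oma1, the protease upstream of DELE1 and HRI, was the lowest of the list in S51, at -0.59 in RPF (adjusted p = 0.136) and -0.65 in total RNA (adjusted p = 4.65e-06). Gcn1, the activator that IMPACT competes for, was called higher in S51 than in S51A in RPF under bortezomib (0.66 ± 0.12, adjusted p = 0.000209), and Prkra, an activator of PKR, lower (-0.64). In TE, Nck1 was called higher (0.63) and Hsp90ab1 lower (-0.94) in S51 on bortezomib, and Hsp90ab1 was also called lower in TE in S51 than in S51A under bortezomib (-0.61) and in the difference of the responses (-0.61). The median RPF change of the list was 0.42 in S51 and 0.05 in S51A.

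Of the 15 ISR targets used as a reference, 13 were tested in RPF, and 8 were called higher and none lower in S51 on bortezomib, 2 higher and 1 lower in S51A, against 7.38% of all genes higher and 11.2% lower in S51 and 4.19% and 6.67% in S51A. The S51 calls were Ddit3, Ddit4 (2.52), Sesn2 (1.85), Atf5 (1.72), Atf4, Nupr1 (1.25), Slc7a11 (0.80) and Chac1 (0.69), and Cebpb was lowest of the list at 0.04. In S51A they were Ddit4 (2.53) and Sesn2 (1.58), called higher, and Chac1 (-0.90), called lower. Between the genotypes 8 of the 13 were called higher in S51 under vehicle and 12 under bortezomib in RPF, and none lower. Of all genes, 6.62% were called higher and 9.19% lower under vehicle, and 17.7% in either direction under bortezomib. Atf4 RPFs rose by 1.46 ± 0.11 in S51 (adjusted p = 3.25e-09) with a total RNA difference of -0.00 ± 0.04 (adjusted p = 0.94), and Ddit3, which encodes CHOP, rose by 2.94 ± 0.35 in RPF and 1.64 ± 0.12 in total RNA (adjusted p = 4.77e-07 and 2.02e-11). In TE, 3 of the 13 were called higher in S51, Atf4 (1.46 ± 0.11), Atf5 (1.91 ± 0.17) and Ddit3 (1.32 ± 0.39), against 1.04% of all genes, and none in S51A. Beside these the TE change of Ppp1r15a in S51 was 1.59 ± 0.39 and that of Trib3 -0.05 ± 0.21. All these genes were read in the same libraries, so their values are set side by side. Apart from the description of Trib3 with Atf5 above, no correlation between them is given.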

How the data were processed

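The authors deposited raw read counts per gene, whole numbers without normalization, in 1 table of RPF and 1 of total RNA. The study's methods name FastX for trimming, bowtie2 for alignment to mm10 and, for counting, plastid, while the submitters' processing notes also list featureCounts and DESeq2. Only RPFs within the coding sequence counted, its first 15 and last 5 codons left out, and column names add removal of rRNA, marked duplicates, masked repeats and unique mapping. The region counted for total RNA and tool versions are not given in the sources used here, so levels were compared between genes in RPF alone, per kilobase of the counted coding sequence of 1 RefSeq transcript. The labels give 4.5 h of treatment and a legend in the study a shorter time. Columns were tied to samples by number, with the exchanged titles of S51 bortezomib and S51A vehicle resolved by the submitters' note, and no column was left unused. Gene names matched 20687 of 20704 and 24569 of 24593 identifiers.

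Counts were fitted in R 4.3.3 with edgeR 4.0.16 (TMM, filterByExpr defaults of 10 counts and a total of 15, glmQLFit and glmQLFTest, 1 coefficient per group over all 4 groups), with Benjamini-Hochberg adjustment over all 9457 (RPF), 11708 (total RNA) or 9424 (TE) genes. TE was tested as the interaction of library kind and group in 1 model of all 31 libraries. SEs came from the information matrix of the fit and the moderated quasi-dispersion. Values per library are CPM on TMM-scaled sizes, and TE per lysate used log2 CPM with a prior count of 2. Ratios of summed counts have exact conditional 95% intervals from scipy 1.17.1 that cover counting error only. The fits were tested on simulated counts, with changes placed only in genes of higher mean counts. That test does not cover genes with as few RPFs as Ppp1r15a and Impact. Alternatives were DESeq2 1.42.0, RLE factors, library sizes alone, 2 other filters, blocks, limma 3.58.1 on TE, fits of 2 groups and leaving out each library. In TE the RPF and total RNA libraries of a lysate were left out together. Replicate libraries differed by more than sampling noise (chi-square per gene at least 1.66 in RPF and 2.78 in total RNA), and S51 vehicle replicate 2 of the RPF libraries most (13.2 and 18.4).

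The 9 genes, the comparison lists and the tests were chosen with earlier results of these data known. The rule for named genes took the 9 genes, Eif2s1, Atf4, Atf5 and Ddit3, the called genes and the range ends of the S51 response of each list, and the 5 genes closest to Ppp1r15a and Trib3 by correlation. Called ISR targets and cell type markers are named for RPF responses and otherwise given as counts or not printed.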

Additional observations from a re-analysis of the deposited data

Results flagged for a closer look

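Of 90 groups of 4 libraries, 6 had 1 library far from the other 3, where about 1 in 20 is given by chance. Eif2ak3 total RNA was 27.0 CPM in S51 vehicle replicate 1 against 29.9 to 30.3, and its TE was -0.35 in S51A vehicle replicate 3 against -1.07 to -0.98. Eif2ak4 had 22.0 CPM of RPF in S51A vehicle replicate 1 against 21.1 to 21.2, and 38.3 CPM of total RNA in S51A vehicle replicate 3 against 41.6 to 41.7. Ppp1r15b had 48.6 CPM of RPF in S51A bortezomib replicate 1 against 45.8 to 46.3, and the TE of Trib3 was 1.27 in S51A bortezomib replicate 2 against 0.69 to 0.78.

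The response to bortezomib differed between the genotypes, by the interaction term of edgeR with Benjamini-Hochberg adjustment, for Ppp1r15a in RPF (2.12 on the log2 scale, adjusted p = 0.0195) and in total RNA (0.57, adjusted p = 0.000633), for Trib3 in total RNA (1.14, adjusted p = 3.2e-05), for Impact in total RNA (0.63, adjusted p = 0.000142) and for Ppp1ca in total RNA (-0.13, adjusted p = 0.0201). Of these, Ppp1r15a in RPF and Trib3 in total RNA also passed the fold threshold, and Ppp1r15a was tested in RPF only because of its counts in S51 bortezomib.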

How the results depend on the processing

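Of 22 calls on the 9 genes, 5 were lost under some alternative in which the gene kept an adjusted p, 3 others were gained and 0 reversed. An RPF or TE call of Ppp1r15a or Impact that ended because the gene had no adjusted p was not counted as lost. In total RNA the number of the 9 genes called was the same under every alternative run. With at least 10 counts in every library, Ppp1r15a and Impact were no longer tested, and the calls among the 7 left were 2 for the S51 response in RPF, 1 and 2 for the genotype difference under vehicle and bortezomib, 0 for the difference in response, and 0 in TE for the S51 response and for both genotype differences. Fitting only the 2 groups compared also dropped both genes under vehicle, leaving 1 call in RPF and 0 in TE. DESeq2 left 0 calls for the difference in RPF response and 0 in TE under vehicle, where it gave no adjusted p for Ppp1r15a and Impact. With no filter beyond 1 count there were 2 calls for the difference in RPF response and 1 for the S51 response in TE, and limma on TE per lysate gave 1. The replicate numbers were taken as not pairing libraries, since same-numbered libraries had correlations from -0.16 to 0.26 between groups. With the replicate block, 2 genes were called for the difference in RPF response, Trib3 being gained, and with the lysate as block the TE calls were 1 for the S51 response and 0 under vehicle, while no other count of calls on the 9 genes moved by over 1.5 times. Leaving out 1 library at a time gave 0 to 2 calls for the difference in RPF response. In TE, leaving out 1 lysate at a time gave 1 to 2 for the S51 response and 0 to 1 under vehicle.

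Over all genes, at least 10 counts took the total RNA calls from 489 to 325 (S51A response), 922 to 541 (vehicle), 970 to 561 (bortezomib) and 56 to 25 (difference in response, 23 by DESeq2), and RPF under vehicle from 1495 to 991. The difference in TE response had 122 calls, 211 by DESeq2, 64 with the lysate block, 16 by limma and 78 to 250 with 1 lysate left out. TE under vehicle had 8 calls, 29 by DESeq2, 5 with at least 10 counts, 2 with the lysate block, 0 with only 2 groups and 2 to 332 with 1 lysate left out. The S51 response in TE went from 498 to 833 calls without S51 vehicle replicate 3. The cause was not tested where not given. Depth limits Impact and Ppp1r15a in RPF, which had at most 45 counts in any library.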
